A study of Mus musculus with 11 samples.

Results

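The genes described here are 35 markers of the immune cells that can be found in or beside pancreatic islets. They comprise 10 markers of B cells, 13 of T cells and 12 of macrophages, and were picked by name from known lineage markers. The deposited table holds 19329 gene IDs, and 7 of the 35 had no row in it. RNA was measured in bulk from whole islets of untreated, chow-fed male mice 14 weeks of age. Per the methods of the study, islets were cultured in medium with serum after they were isolated. What this did to the immune cells in them was not tested. The 6 control libraries came from wild-type mice and the other 5 from homozygotes for PDX1 P33T, a proline-to-threonine exchange in the islet transcription factor PDX1 that was edited into the germline of C57BL/6N embryos with Cas9 and is therefore carried by every cell, immune cells included. The legend of the study gives 6 mice for each replicate, so that 1 library may stand for RNA of several animals. Every n and SD is over libraries. Between 19311937 and 37094286 reads were counted in a library.

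Values are FPKM, the fragments on a gene scaled to its length and to the reads counted in the library. Of the 35 markers, 27 had values in the PDX1 P33T libraries. *Cr2*, *Fcer2a*, *Cd3e*, *Cd3d*, *Cd8a*, *Cd8b1* and *Cd5* had no row in the table used here, and *Cd6*, a T cell surface receptor, was listed at 0 in all 5 PDX1 P33T libraries. Per its methods, the study dropped genes measured in fewer than 80% of replicates in both genotypes. In the PDX1 P33T columns each gene ID had a value above 0 in 5 libraries (17600 IDs), in 4 (1363 IDs) or in 0 (366 IDs), and never in 1 to 3. A gene without a row, or listed at 0 throughout, may thus have had reads in some PDX1 P33T libraries. The wild-type columns stood on the rows of other genes for most of the table, so a wild-type value is given only where its row was found again. This held for 10 markers, 8 through their reads and 2 through gene length and level, and 9 of these could be compared between the genotypes. In bulk RNA, fewer cells of a type and less RNA per cell cannot be told apart.

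B cells recognise antigen with membrane antibody, whose heavy chains of the IgM and IgD classes are encoded by *Ighm* and *Ighd* and which signals through the partner chains CD79A and CD79B. Their identity is set by the transcription factors EBF1 and PAX5, and CD20 (*Ms4a1*) and CD22 are on their surface. T cells carry a receptor built around the CD3 chains together with the coreceptors CD4 or CD8. Macrophages are the usual resident leukocyte of a healthy islet. They depend on the growth factor receptor CSF1R, carry F4/80 (*Adgre1*), make the 3 chains of the complement component C1q and digest what they take up with lysosomal proteins such as CD68, lysozyme 2 and cathepsin S.

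The labelled tissue was borne out by its own markers. *Ins2*, which encodes insulin, was the most abundant gene of the islet endocrine list at 153000 ± 19900 FPKM (SD, n = 5) in PDX1 P33T islets, and all 14 genes of that list had values. *C1qa*, the most abundant immune marker, stood at 72.4 ± 3.79 FPKM (SD, n = 5), at rank 479 of all gene IDs by level.

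The stretches before the transcription start of a pair of B cell markers and a pair of macrophage markers are shown because factors that direct these lineages read short motifs there. RefSeq promoters of GRCm38.p6 were on hand for 21 of the 35 markers, under 25 entries. In the 250 bases before the start, the palindrome read by EBF1, TCCC and GGGA with 2 bases of any kind between them, was found in the entry of *Cd22* alone among these 25, and in 0.779% of all 32851 promoters. AGGAAGT, the core read by ETS factors such as PU.1, was found on either strand in 10 of the 25 entries and in 7.69% of all promoters. These were 6 of 8 entries of T cell markers, 3 of 8 of macrophage markers and 1 of 9 of B cell markers. Both strands were searched, and the 2 motifs did not overlap in the stretches printed. A match is a description of letters and not a site. Each stretch is the 120 bases up to the start, 5′ to 3′ in the direction of the gene, and capitals mark the motif. *Cd22* is on the minus strand at chr7:30879029-30879148 and its motif begins at position -49 from the start. *Cd79a* is on the plus strand at chr7:24897377-24897496, with its motif at -55. *C1qb* is on the minus strand at chr4:136886201-136886320 and *Lyz2*, also minus, at chr10:117282273-117282392, and both hold the ETS core on the opposite strand, at -53 and -100.
Cd22: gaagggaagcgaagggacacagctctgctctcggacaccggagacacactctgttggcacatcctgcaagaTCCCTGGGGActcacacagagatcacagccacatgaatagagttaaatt
Cd79a: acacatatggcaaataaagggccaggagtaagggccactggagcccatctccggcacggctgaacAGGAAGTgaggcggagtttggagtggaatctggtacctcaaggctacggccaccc
C1qb: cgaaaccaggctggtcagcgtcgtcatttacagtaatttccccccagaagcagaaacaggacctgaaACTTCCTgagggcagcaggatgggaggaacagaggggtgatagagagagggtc
Lyz2: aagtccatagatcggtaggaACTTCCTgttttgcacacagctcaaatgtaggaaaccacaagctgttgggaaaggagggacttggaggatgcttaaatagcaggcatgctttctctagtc

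Macrophage markers were by far the most abundant of the 3 classes and were nearly even across the mutant islets. Their FPKM summed to 217, 185, 186, 212 and 187 in PDX1 P33T replicates 1 to 5, so that the highest library was 1.17 times the lowest. The T cell markers summed to between 1.27 and 2.12 FPKM, and the B cell markers to between 9.94 and 16.3 FPKM. Of the B cell sum, 76.0% came from *Cd79a* alone, and without it the B cell markers were at 1.03, 0.602, 6.93, 1.08 and 6.52 FPKM. Replicates 3 and 5 therefore stood apart from the other 3 libraries in B cell markers, while the macrophage sum in them was within the range of the other libraries.

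**Figure D1:**
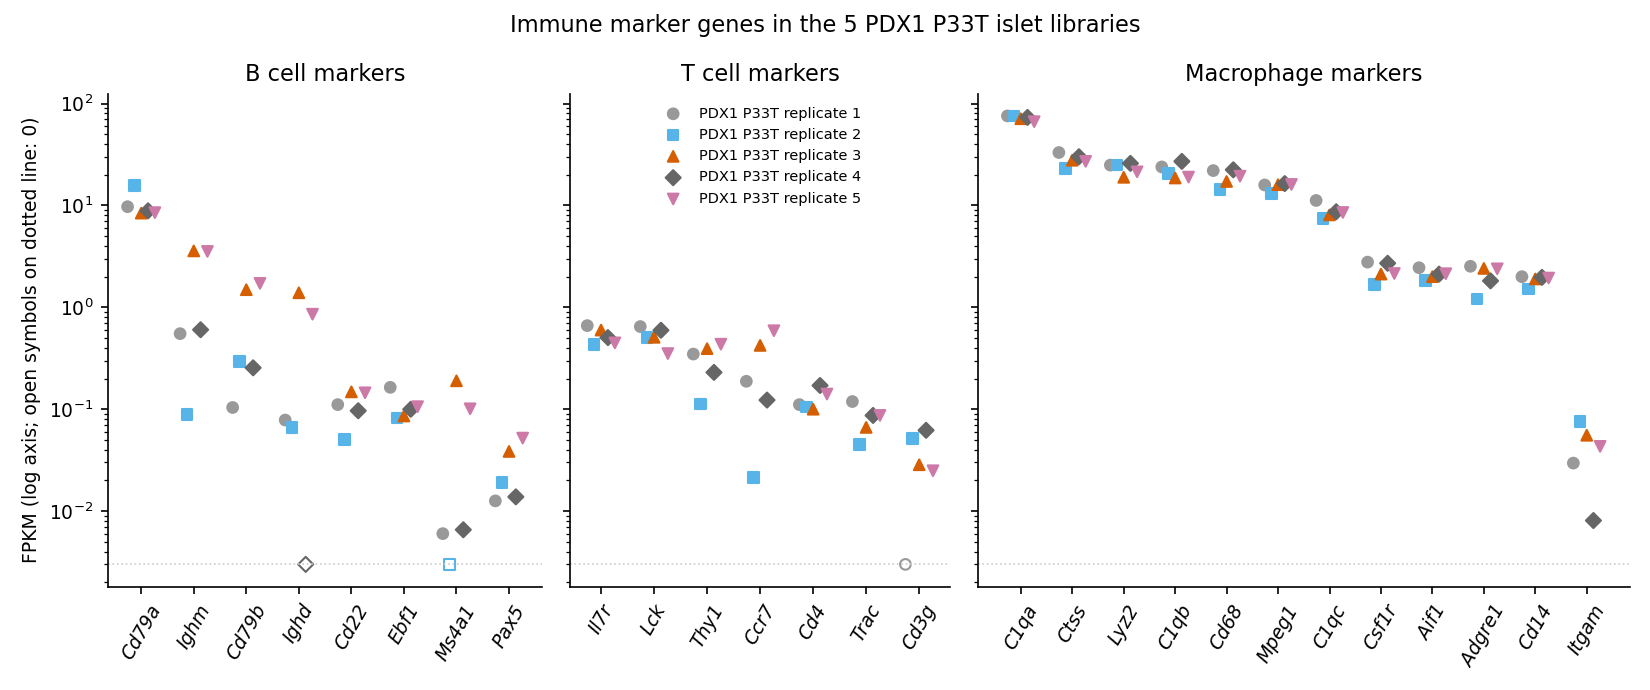
FPKM (log axis) of the 27 markers with values in the 5 PDX1 P33T libraries, by class and ordered by mean, with 1 symbol per library and open symbols for a value of 0. Macrophage markers from *C1qa* to *Cd14* lie close together in all libraries, while *Ighm*, *Cd79b*, *Ighd* and *Ms4a1* are high in replicates 3 and 5 alone.

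*Ighm*, the heavy chain of IgM, had 0.552, 0.0894, 3.58, 0.603 and 3.54 FPKM in PDX1 P33T replicates 1 to 5, from 28, 4, 218, 28 and 246 reads. *Cd79b*, the signalling partner of membrane antibody, had 0.104, 0.294, 1.49, 0.255 and 1.72 FPKM, from 4, 10, 69, 9 and 91 reads. Both genes were at least 5 times as high in the lower of replicates 3 and 5 as in the highest of the other libraries, by factors of 5.87 and 5.08. *Ighd*, the heavy chain of IgD, followed with 0.0783, 0.0665, 1.39, 0 and 0.857 FPKM, from 4, 3, 85, 0 and 60 reads. *Ms4a1*, which encodes CD20, had 1, 0, 38, 1 and 23 reads and thus 0.00601, 0, 0.19, 0.00656 and 0.101 FPKM. The values of *Ms4a1* in replicates 1, 2 and 4 rest on at most 1 read each and were at the limit of detection at this depth.

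*Pax5*, the transcription factor that holds cells in the B lineage, was low throughout but also highest in replicates 3 and 5. It had 0.0126, 0.019, 0.0385, 0.0138 and 0.0521 FPKM, from 3, 4, 11, 3 and 17 reads. *Cd22*, an inhibitory coreceptor, was highest in replicates 3 and 5 as well, but its values of 0.148 and 0.145 FPKM were only 1.31 times the next. *Ccr7*, the homing receptor of naive T cells that B cells also carry, stood among the T cell markers and had 0.188, 0.0213, 0.423, 0.123 and 0.59 FPKM. It was the 1 T cell marker that was at least 2-fold higher in both of these libraries than in each of the others.

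That pattern was looked for across the whole table, with a rule set after the values were seen, so the counts are a description. Of 16421 genes with at least 30 reads over the PDX1 P33T libraries, replicates 3 and 5 were both above the other 3 in 1616 (9.84%) and both at least 2-fold above them in 23 (0.14%). Of the 23, 20 had under 30 reads over replicates 1, 2 and 4 and so reached the minimum through the libraries in which they are high, and the count supports nothing about the markers. *Ms4a1*, *Ighd*, *Cd79b*, *Pax5* and *Ccr7* were among these 20, with 2, 7, 23, 10 and 17 reads over replicates 1, 2 and 4. *Ighm* had 60 reads there and did not depend on replicates 3 and 5 for the minimum. No macrophage marker was among the 23. Of 13 other B cell genes with 30 reads, 2 met the rule, *Tnfrsf13c*, the receptor for the survival factor BAFF, and *Spib*, an ETS factor of B cells, with 2 and 5 reads over replicates 1, 2 and 4. In 7 of these 13, among them *Blnk*, *Btk* and *Cd72* of B cell signalling, replicates 3 and 5 were not both the highest. Of 5 plasma cell genes 1 met it, *Igkc*, the kappa light chain constant region. Outside the lists they held *Irf4*, *H2-DMb2* and *H2-Ob*, which act in B cell activation and antigen loading, *Lsp1* of leukocytes, and genes with no such role known here, such as *Gabrp*, *Esr1* and *Wnt7b*. *Ablim1*, an actin-binding protein, had the most reads of the 23, with 36, 110, 360, 37 and 438. For the other pairs of libraries the same rule was met by 3 to 32 genes, so the number of genes is not out of the ordinary for this pair.

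Not all B cell markers took part. *Cd79a*, which encodes the other signalling partner, had 9.73, 15.7, 8.41, 8.86 and 8.51 FPKM in replicates 1 to 5 from 318 to 544 reads per library. Replicates 3 and 5 were the lowest libraries for *Cd79a*, and replicate 2 was the highest. The ratio of *Cd79a* to *Cd79b* was 93.6, 53.4 and 34.7 in replicates 1, 2 and 4 but 5.62 and 4.93 in replicates 3 and 5. In RefSeq gene order *Cd79a* lies between *Rps19*, a ribosomal protein gene, and *Arhgef1*, and overlaps neither. *Rps19* had 76.3, 107, 58.1, 66.8 and 58.9 FPKM, and its ratio to *Cd79a* stayed between 6.78 and 7.84. Of 11178 other genes with a mean of at least 1 FPKM, 0.904% had a ratio to *Cd79a* at least as even as that of *Rps19*. Whether reads of a neighbour were counted on *Cd79a*, or whether its row holds the values of another gene, was not tested. *Ebf1*, the factor that starts the B cell programme, did not follow either, with 0.164, 0.0821, 0.0858, 0.0999 and 0.106 FPKM.

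Other genes moved with replicates 3 and 5. *Ppy*, the hormone of the islet PP cells, had 9820, 7470, 2920, 7860 and 3020 FPKM, and was thus lowest in the same 2 libraries. The acinar genes, from the digestive enzyme cells around the islets, summed to 25.2, 142, 11.7, 25.2 and 13.6 FPKM and were lowest there too. Replicates 3 and 5 were also the deepest of the 5, with 32253339 and 36865206 reads against 23731684 to 26887871. The part of these differences in the B cell pattern was not tested. Of 8 stromal genes of lymph nodes, *Ccl21a*, *Ccl19*, *Glycam1*, *Chst4* and *Tnfsf11* had no row, which says nothing of replicates 3 and 5. *Cxcl13* and *Madcam1*, the genes measured beside *Clu*, summed to 0.755 and 0.571 FPKM in replicates 3 and 5 and to 0.558 to 0.815 FPKM in the rest.

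**Figure D2:**
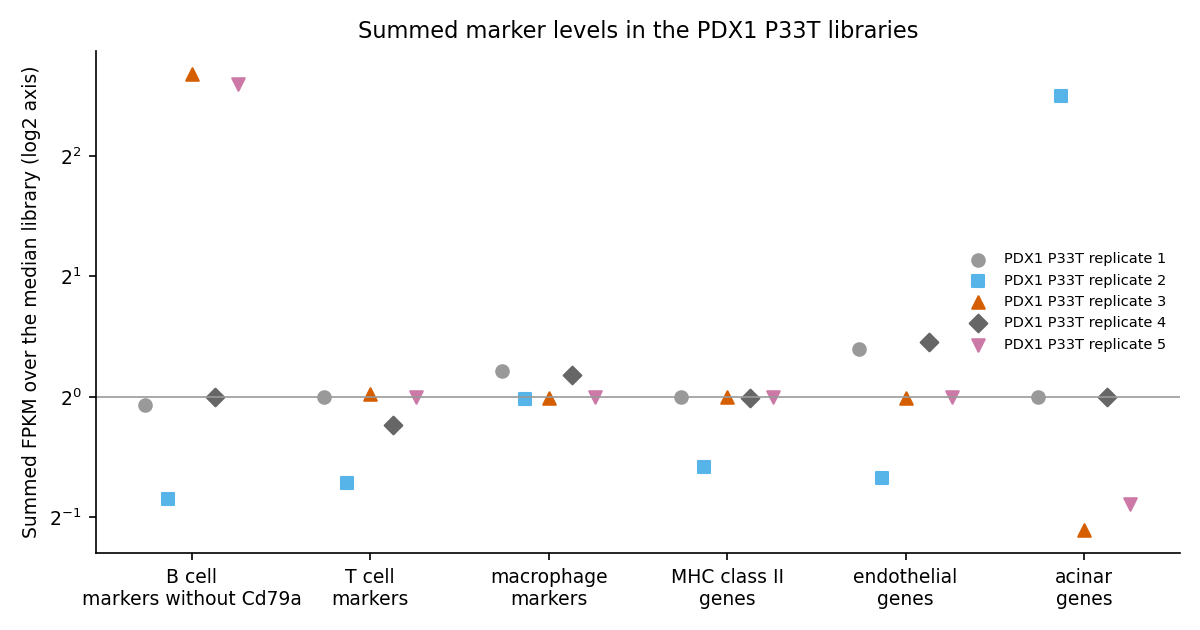
Summed FPKM of 6 gene lists in each PDX1 P33T library, divided by the median of the 5 libraries (log2 axis). Replicates 3 and 5 are high in B cell markers without *Cd79a* (6.93 and 6.52 FPKM) and low in acinar genes, and replicate 2 is high in acinar genes (142 FPKM) and low in endothelial genes (74.1 FPKM).

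The T cell markers that could be measured were low. Of the chains that define the receptor, *Cd3e* and *Cd3d* had no row and were not measured here, *Cd3g* had 0, 4, 3, 5 and 3 reads and *Trac*, the alpha chain constant region, had 3, 1, 2, 2 and 3. *Cd4* had between 10 and 21 reads per library, or 0.126 ± 0.0302 FPKM (SD, n = 5), while *Cd8a* and *Cd8b1* had no row. The T cell markers with more reads were *Il7r*, the interleukin 7 receptor, at 0.529 ± 0.0984 FPKM, *Lck*, a kinase of the receptor, at 0.521 ± 0.113 FPKM, and *Thy1*, a surface protein that stromal and neural cells share, at 0.304 ± 0.131 FPKM (SD, n = 5 for each). None of these 3 set replicates 3 and 5 apart by 2-fold.

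Genes of related lymphocytes were only partly measured. Of 17 other T cell genes, 9 had no row, and apart from *Skap1*, which was at 8.4 FPKM and gave 93.6% of that list's sum, the rest summed to between 0.484 and 0.699 FPKM. Of 10 NK cell genes only *Ccl5*, a chemokine, had a row, at 12.9, 8.12, 9.33, 11.2 and 10.3 FPKM. Of 12 plasma cell genes, 6 had a row, and *Igkc* had 1.75, 0.713, 6.53, 1.6 and 7.29 FPKM. Without *Igkc* the plasma cell genes summed to 3.79 to 4.47 FPKM. *Jchain*, which joins antibody units into polymers, was also highest in replicates 3 and 5, with 0.103, 0.067, 0.308, 0.0323 and 0.194 FPKM. Of 9 neutrophil genes 7 had no row, among them *S100a8*, *S100a9* and *Ly6g*, and the other 2 summed to at most 0.303 FPKM, led by *Csf3r*, and of 7 mast cell genes 2 had a row, of which *Kit* was at 1.26 FPKM.

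*C1qa*, the A chain of complement C1q, was the most abundant macrophage marker. It had 75.7, 75.4, 71, 73.2 and 66.5 FPKM in PDX1 P33T replicates 1 to 5, the most even of all 27 markers at 1.14 times between the highest and the lowest library. *C1qb* had 23.9, 20.7, 18.6, 27.1 and 19 FPKM and *C1qc* had 11.2, 7.46, 8.08, 8.68 and 8.54 FPKM. The 3 chains form 1 protein and their genes are neighbours, yet *C1qa* was above the other chains in every library on the FPKM scale. *Ctss*, the protease cathepsin S, was at 28.2 ± 3.66 FPKM, *Lyz2*, lysozyme, at 23.2 ± 2.95 FPKM, *Cd68*, a lysosomal membrane protein, at 19.1 ± 3.39 FPKM and *Mpeg1*, a pore-forming protein of phagocytes, at 15.5 ± 1.36 FPKM (SD, n = 5 for each).

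The surface receptors were lower. *Csf1r* was at 2.29 ± 0.46 FPKM, *Aif1*, an actin-bundling protein also known as IBA1, at 2.11 ± 0.224, *Adgre1* at 2.07 ± 0.554 and *Cd14*, the coreceptor for endotoxin, at 1.86 ± 0.202 (SD, n = 5 for each). *Itgam*, the CD11b integrin chain of myeloid cells, was nearly absent with 4, 9, 9, 1 and 8 reads. For the 11 macrophage markers with a mean of at least 1 FPKM the median ratio of the highest to the lowest library was 1.43, beside 1.39 for all 10833 genes with a mean of 1 to 100 FPKM.

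Replicate 2 was the lowest PDX1 P33T library for 8 of the 12 macrophage markers, beside 34.9% of all genes with at least 30 reads. Of 19 other macrophage genes with 30 reads, it was the lowest library for 6 (31.6%) and the highest for 6. *Adgre1* stood at 2.53, 1.21, 2.41, 1.82 and 2.39 FPKM and *Csf1r* at 2.78, 1.68, 2.12, 2.71 and 2.15 FPKM, so replicate 2 was at 0.504 and 0.69 times the median of the others, the lowest ratios among the 12. *C1qa*, *Lyz2* and *Itgam* were at 1.05, 1.08 and 2.07 times that median, the last on 1 to 9 reads per library. The same library had the highest value of all 12 acinar genes with 30 reads, among them the proteases *Ctrb1* at 41.5 FPKM and *Cela3b* at 11.2 FPKM, and the lowest value of all 8 endothelial genes. It was the shallowest of the 5, with 23731684 reads. The part of these differences in the lower macrophage values was not tested.

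In sum, other macrophage genes varied by 1.25 times between libraries, dendritic cell genes by 1.37 times and class II genes by 1.51 times. The macrophage markers varied by 1.17 times, and by 1.28 times without *C1qa*. Of 24 other macrophage genes, 20 had a row, and they summed to 74.7, 70.6, 60.7, 73.1 and 59.8 FPKM, led by *Lgals3*, a galectin, at 20.2 FPKM. *Itgax*, the CD11c chain of dendritic cells and islet macrophages, was at 1.97 FPKM and *Bst2* led the dendritic cell list at 22 FPKM. The pan-leukocyte genes summed to between 17.5 and 20.8 FPKM, led by *Arhgdib* at 5.1 FPKM. Of those with a mean of at least 1 FPKM, *Cd52*, a surface glycoprotein, had the widest spread. Class II genes for antigen presentation summed to 162, 108, 162, 161 and 162 FPKM, of which *Cd74*, the invariant chain, gave 58.5%.

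The genotypes were compared to ask whether islets of PDX1 P33T mice hold more or less immune cell RNA than wild-type islets. The comparison used limma on log2(FPKM + 0.1), with p-values adjusted by Benjamini-Hochberg. It covered the 4726 genes with a known wild-type row that were not listed at 0 throughout PDX1 P33T. Calls required an adjusted p no higher than 0.05 together with a change of 1.5-fold or more. No marker was called, and the same thresholds called 2 genes higher (0.0423%) and 2 genes lower (0.0423%) of the 4726. At an unadjusted p under 0.05 there were 2 markers higher and 4 lower, beside 15.7% of all genes higher and 18.3% lower (34.0% together). These shares are not an even background. The rows known from reads come from the top of a sheet that the study ordered by the genotype difference, and 87.1% of such genes had an unadjusted p under 0.05, against 4.88% of genes placed by length and level. A low unadjusted p of a marker placed by its reads is therefore partly the way it was found. The median log2 fold change was -0.47 over the 9 markers, of which 7 were placed by reads. It was -0.06 over all genes in the fit, -0.32 over those placed by reads and 0.04 over those placed by length and level. The groups overlapped for all 9 markers, while 4.85% of the genes in the fit had groups that did not.

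For B cells, *Ighm* had 0.569, 0.144, 0.329, 0.129, 0.0873 and 0.119 FPKM in wild-type replicates 1 to 6. Its mean was 0.23 ± 0.187 (SD, n = 6) in wild-type against 1.67 ± 1.73 FPKM over PDX1 P33T (SD, n = 5), for a log2 fold change of 1.81 (standard error SE 0.69, limma adjusted p = 0.499). Replicates 1, 2 and 4 of PDX1 P33T were within or just above the wild-type range and replicates 3 and 5 were far above all of them. *Cd79b* had 0.21, 0.19, 0.0724, 0.0754, 0.276 and 0.0524 FPKM in wild-type, from 2 to 12 reads, and a log2 fold change of 1.39 (SE 0.54, limma adjusted p = 0.499). Without PDX1 P33T replicates 3 and 5, a choice made after the values were seen, these log2 fold changes were 0.59 for *Ighm* and 0.40 for *Cd79b*. *Ebf1*, on the other hand, averaged 0.185 ± 0.148 FPKM over wild-type (SD, n = 6) and its log2 fold change was -0.33 (SE 0.29, limma adjusted p = 1).

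*Igkc* and *Fcmr*, from the lists of other B cell and plasma cell genes, had the highest log2 fold changes of those lists. *Igkc* had 0.807, 1.36, 0.973, 0.0507, 0.0619 and 0.494 FPKM in wild-type, from 1 to 16 reads per library. Its log2 fold change of 2.33 (standard error 0.73) was the largest positive value of the whole fit, though it was not called (adjusted p = 0.499 from limma). Without PDX1 P33T replicates 3 and 5 it was 1.39. *Fcmr*, the receptor for the constant part of IgM, had 0.0155 to 0.234 FPKM in wild-type and 0.34 to 0.947 FPKM in PDX1 P33T. The lowest PDX1 P33T library was thus above the highest wild-type library (two-sided exact permutation test, p = 0.00216, the smallest this design allows), but the adjusted p over all genes was 0.423 from limma. The study itself, which used DESeq2 on counts, reported *Fcmr* as significantly upregulated in PDX1 P33T islets. Both *Igkc* and *Fcmr* are among the genes placed by reads, which were selected for small p. *Fcmr* is the neighbour of *Pigr*, the receptor that carries antibody across epithelia, in RefSeq gene order. *Pigr* was 1 of the 4 genes called in the fit, with means of 2.02 ± 0.362 FPKM over wild-type (SD, n = 6) and 5.15 ± 0.684 FPKM over PDX1 P33T (SD, n = 5), and whether its reads were counted on *Fcmr* was not tested.

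**Figure D3:**
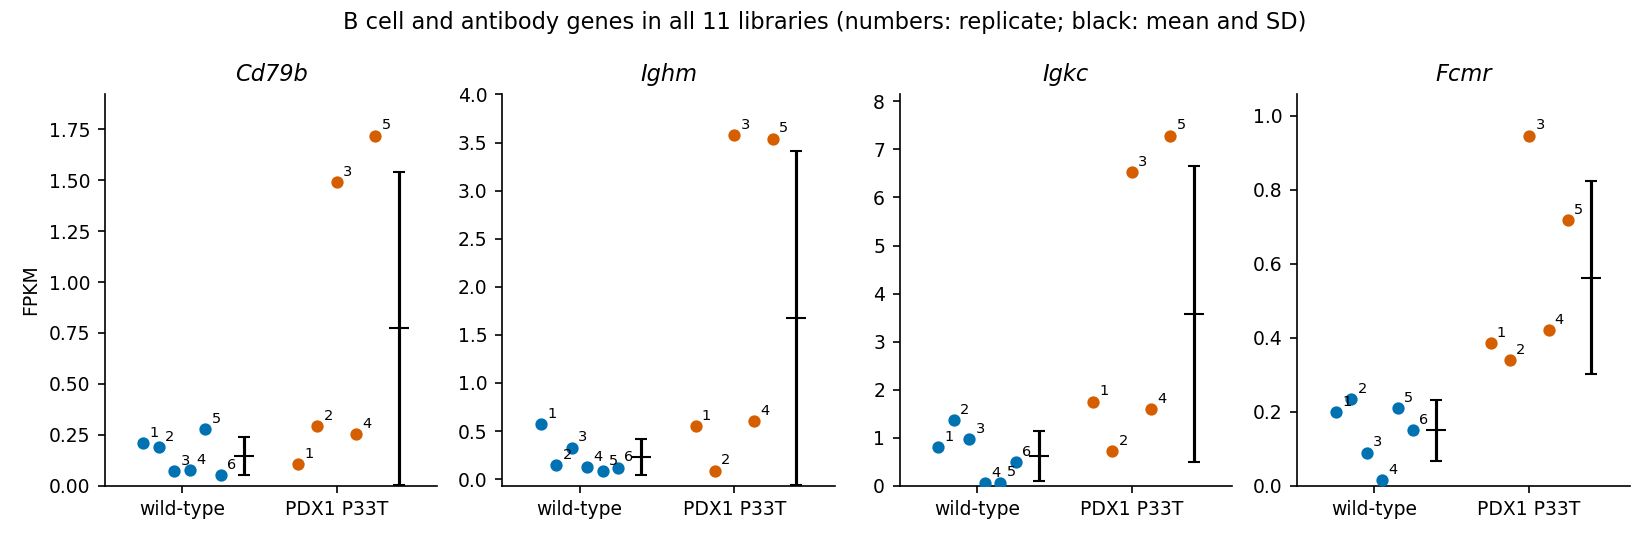
FPKM of *Cd79b*, *Ighm*, *Igkc* and *Fcmr* in each of the 6 wild-type and 5 PDX1 P33T libraries, numbered by replicate, with the mean and SD in black. PDX1 P33T replicates 3 and 5 are highest in each panel, and for *Fcmr* alone the groups do not overlap.

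For T cells, *Il7r* averaged 0.745 ± 0.177 FPKM over wild-type (SD, n = 6) against 0.529 ± 0.0984 over PDX1 P33T (SD, n = 5), for a log2 fold change of -0.41 (SE 0.16, limma adjusted p = 0.503). *Thy1* averaged 0.556 ± 0.289 FPKM over wild-type (SD, n = 6), highest in replicate 3 at 1.09 FPKM, with a log2 fold change of -0.68 (SE 0.30, limma adjusted p = 0.573). *Cd6*, listed at 0 in PDX1 P33T, had 0, 3, 7, 1, 1 and 4 reads in wild-type replicates 1 to 6 and was not compared. A wider rule for finding wild-type rows, added after the data were seen, gave *Lck* a wild-type mean of 0.474 ± 0.135 FPKM (SD, n = 6) and a log2 fold change of 0.13 (SE 0.19, limma adjusted p = 1).

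All 4 macrophage markers compared had lower means in PDX1 P33T, and none passed the test. *Csf1r* had 2.47, 7.28, 5.27, 3.12, 2.68 and 3.01 FPKM in wild-type replicates 1 to 6, and a log2 fold change of -0.68 (SE 0.26, limma adjusted p = 0.499). *Adgre1* had 2.11, 5.99, 5.13, 2.28, 2.99 and 2.39 FPKM in wild-type and a log2 fold change of -0.65 (SE 0.29, limma adjusted p = 0.573). In both genes wild-type replicates 2 and 3 were above the other 4 wild-type libraries, which overlapped with the PDX1 P33T libraries.

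*Cd68* had 17.5, 44.1, 45, 20.7, 24.9 and 21.5 FPKM in wild-type and a log2 fold change of -0.52 (SE 0.25, limma adjusted p = 0.648). *Mpeg1* had 15.8, 41.7, 30.8, 16.6, 17.5 and 16.3 FPKM and a log2 fold change of -0.47 (SE 0.24, limma adjusted p = 0.716). These 2 genes split the wild-type libraries as *Csf1r* and *Adgre1* did. The PDX1 P33T means were 0.811 to 0.935 times the mean of wild-type replicates 1, 4, 5 and 6 for these 4 genes, and wild-type replicates 2 and 3 together were at 2.11 to 2.28 times that mean.

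Without wild-type replicates 2 and 3, a choice made after the values were seen, the log2 fold changes were -0.31 for *Csf1r*, -0.26 for *Adgre1*, -0.16 for *Cd68* and -0.10 for *Mpeg1*. Wild-type replicates 2 and 3 were both above the other 4 wild-type libraries in all 4 of these genes, beside 20.1% of all genes in the fit and 501 of the 1672 placed by reads, as these 4 were. They were both at least 1.5-fold above the other 4 wild-type libraries in all 4 of these genes, in 6 of 11 other macrophage genes with a known row, in 3.28% of all genes in the fit and in 6.58% of those placed by reads. *Aif1*, placed by the wider rule, had 1.71, 3.25, 5.88, 2.34, 2.54 and 2.3 FPKM in wild-type and a log2 fold change of -0.38 (SE 0.24, limma adjusted p = 0.867).

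**Figure D4:**
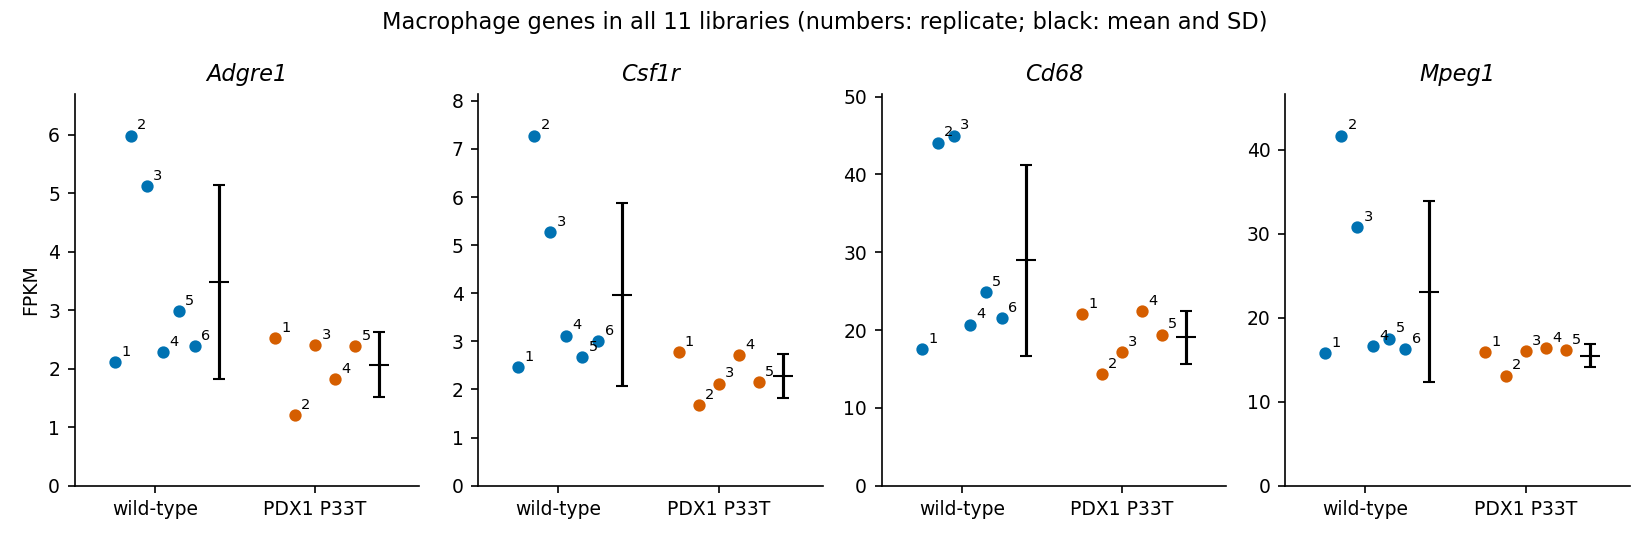
FPKM of *Adgre1*, *Csf1r*, *Cd68* and *Mpeg1* in each of the 6 wild-type and 5 PDX1 P33T libraries, numbered by replicate, with the mean and SD in black. Wild-type replicates 2 and 3 stand above the other 4 wild-type libraries in each panel, and those 4 overlap with PDX1 P33T.

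Other myeloid, pan-leukocyte and class II genes with a known wild-type row also had lower values in PDX1 P33T, and limma called none of them. Values below 0 were found for 52.9% of all genes in the fit and 58.7% of genes placed by reads. An unadjusted p under 0.05 from limma was found for 34.0% and 87.1% of these. All 11 other macrophage genes had log2 fold changes below 0, with a median of -0.57, and 4 had an unadjusted p under 0.05. The log2 fold change was below 0 in all 8 pan-leukocyte genes too (7 of 8 with quantile normalisation), with a median of -0.34 and 2 at an unadjusted p under 0.05. It was below 0 in all 3 dendritic cell genes, with a median of -0.68, and in all 6 class II genes, with a median of -0.56. An unadjusted p under 0.05 was found for 3 and 2 of these. The other B cell genes were divided, with 2 of 5 above 0. Some lists that are not of immune cells were below 0 as well, with all 6 endothelial genes (median -0.63) and all 3 Schwann cell genes (median -0.67). So were all 4 stromal genes (median -0.58), though only 3 of 4 with quantile normalisation. Islet endocrine genes were not, with 5 of 9 above 0 (median 0.07), nor was *Krt7*, the ductal gene compared, at 0.14. *Laptm5*, a lysosomal protein of leukocytes, had 5.75 to 14.5 FPKM in wild-type and 3.17 to 5.71 FPKM in PDX1 P33T, so its groups did not overlap (two-sided exact permutation test, p = 0.00433), but its adjusted p was 0.499 from limma. *Laptm5* is among the genes placed by reads, which were selected for small p. Without wild-type replicates 2 and 3 the medians were -0.18 for the other macrophage genes and -0.07 for the pan-leukocyte genes. They were -0.37 for the dendritic cell genes and -0.44 for the class II genes. In the same fit they were -0.41 for the endothelial genes, 0.16 for the stromal genes and -0.02 for all genes.

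Markers of other cells were also high in these wild-type libraries, some in both and some in 1. Endothelial genes summed to 218 FPKM in wild-type replicate 3 and to 44.2 to 92.1 FPKM in the other wild-type libraries, over the 6 genes with a known row. The class II genes were highest in that library too, with *Cd74* at 324 FPKM against 84.6 to 146 FPKM. Stromal genes, led by the collagen gene *Col1a1*, summed to 27.1 and 5.72 FPKM in wild-type replicates 2 and 3 and to 1.46 to 3.02 FPKM in the other 4, over 4 genes. Schwann cell genes summed to 5.1 and 2.49 FPKM in replicates 2 and 3 and to 1.17 to 1.82 FPKM in the other 4, over 3 genes. Replicates 2 and 3 were both the highest in 3 of these 4 stromal and 2 of these 3 Schwann cell genes. Wild-type replicates 2 and 3 were also the shallowest wild-type libraries, with 22112212 and 19311937 reads. The part of these differences in the macrophage values was not tested.

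**Figure D5:**
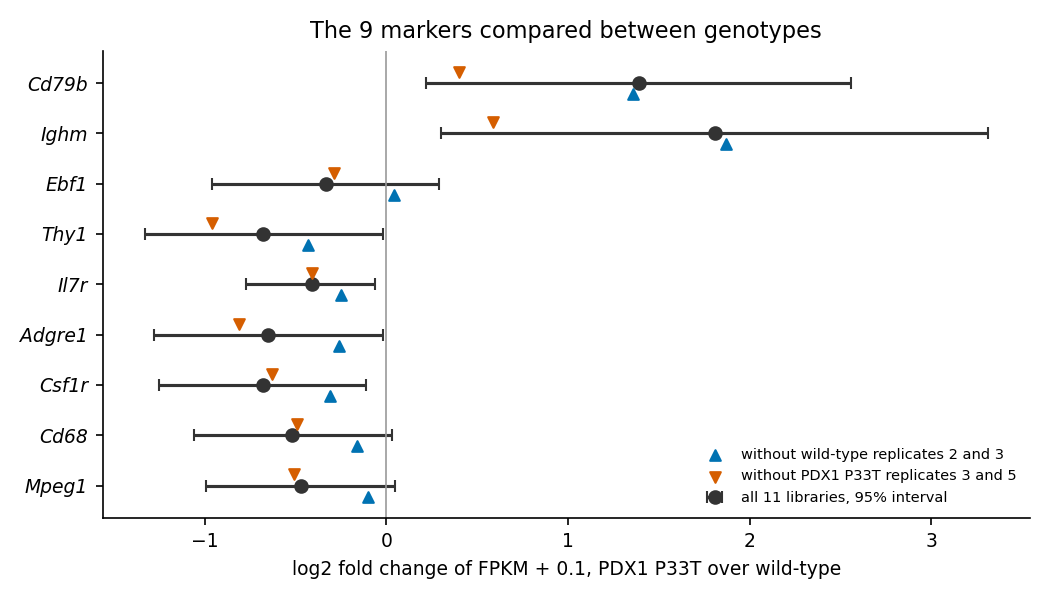
Log2 fold change of FPKM + 0.1, PDX1 P33T over wild-type, of the 9 markers compared, with 95% intervals from limma, beside the value without wild-type replicates 2 and 3 and without PDX1 P33T replicates 3 and 5. *Ighm* falls from 1.81 to 0.59 without the latter, and *Mpeg1* moves from -0.47 to -0.10 without the former.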

How the data were processed

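Whole islets of 6 wild-type and 5 PDX1 P33T libraries were sequenced. Per the labels and methods, the authors filtered reads with fastp 0.23.1, aligned them with HISAT2 2.0.5 to GRCm39 and counted them with featureCounts 1.5.0-p3, as named in the submitters' processing notes, and deposited FPKM per gene. The notes also name DESeq2 1.20.0, which was not used here, as FPKM are not counts. A strand-specific and a non-stranded protocol are both named, so overlapping and antisense genes are uncertain. The legend calls the libraries biological replicates, but the labels do not tie them to animals, so p-values measure only the spread between these libraries. The markers and gene lists were chosen with earlier results of these data known. All 35 markers are accounted for, and of each other list the most abundant gene, the one with the widest spread at a mean of at least 1 FPKM and any called gene are named, except some that are not reported here. Others named, such as *Rps19*, *Pigr*, *Fcmr*, *Laptm5* and the genes that followed PDX1 P33T replicates 3 and 5, were chosen after their values were seen.

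Most deposited wild-type FPKM stood on rows of other genes. Rows were found again for 4765 genes (24.7%), 1711 by the wild-type reads of a supplementary sheet of which 1749 rows were held here, and 3054 by gene length and level. Library totals were solved from the deposited FPKM with the lengths and reads of that sheet. The length was the smallest whole number from 20 to 130000 bases at which all FPKM of a gene were whole reads, and 98.2% of the supplementary lengths were recovered. A length that is a divisor of the true one gives too few reads. A match needed 100 reads in each genotype, means within 4-fold and no rival of that length within 16-fold, and all 402 matches that the reads could check were right. A match by level cannot be made for a gene that differs by more than 4-fold. The wider rule counted a rival within 4-fold only. Genes listed at 0 in all PDX1 P33T libraries (39 of those placed) were left out of the fit.

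Genotypes were compared with limma 3.58.1 in R 4.3.3 with the trend and robust options, without covariates, and p was adjusted over all 19329 gene IDs with genes lacking a row taken as unchanged. Single genes were compared by two-sided exact permutation (462 arrangements), and fold changes on the log2(FPKM + 0.1) scale understate those of low genes. Alternatives comprised the pseudocount, a filter on low values, scaling, limma options, the replicate block, the source of the rows and leaving out each library. Reads carry no molecular identifiers, so read counts cover counting error only. The scripts were tested on simulated data. Python 3.11.15 was used for tables and plots, with matplotlib 3.10.9, scipy 1.17.1, pandas 2.3.3 and numpy 2.4.6.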

Additional observations from a re-analysis of the deposited data

Results flagged for a closer look

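In 4 of the 39 sets of libraries examined, a single library lay far from the rest of its group by Dixon's criterion, which chance meets in about 1 of 20 sets. *Cd79a* was at 15.7 FPKM in PDX1 P33T replicate 2 and at 8.41 to 9.73 FPKM in the other 4 libraries. *Mpeg1* was at 13.1 FPKM in the same library, against 15.9 to 16.4 FPKM, and *Cd14* was at 1.51 FPKM there, against 1.9 to 2 FPKM. *Ebf1* was at 0.164 FPKM in PDX1 P33T replicate 1, against 0.0821 to 0.106 FPKM in the others. Pairs of libraries that stand apart together, such as PDX1 P33T replicates 3 and 5 in *Ighm*, are not picked up by this criterion.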

How the results depend on the processing

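No marker was called higher or lower in any of the 25 alternatives, 6 of which cannot change a fold change by their construction. Under the other 19, the log2 fold changes of the 9 markers kept their direction in 170 of 171 values. The exception was *Ebf1*, at 0.04 without wild-type replicates 2 and 3. Leaving out single libraries, the log2 fold change of *Ighm* ran from 1.35 to 2.42 and that of *Cd79b* from 0.99 to 1.79. The ratio of the highest to the lowest PDX1 P33T library was 1.64 for the summed B cell markers, 2.61 for the mean of log2 values and 11.5 without *Cd79a*. For the macrophage markers it was 1.17, and 1.28 for the mean of log2 values, 1.27 with FPKM rescaled to the library without the islet hormone genes and 1.28 without *C1qa*. For the T cell markers it was 1.66, running from 1.19 to 1.66 when single libraries were left out. The 1.19 was without PDX1 P33T replicate 2. Over the 5 omissions of 1 PDX1 P33T library, the ratio ran from 1.52 to 1.64 for the B cell markers and from 1.15 to 1.17 for the macrophage markers. The numbers in the titles and library names did not pair the libraries, with correlations of same-numbered libraries from -0.552 to 0.072, and with a replicate block by title 0 markers were called higher and 0 lower. Among all genes, 4 were called, against 1 with that block, 6 with median scaling, 7 with quantile normalisation, 8 with the wider rule, 13 with p adjusted over the fitted genes alone, 2 with a log2 threshold of 1.5, 2 without PDX1 P33T replicates 3 and 5, and 3 to 8 with single libraries left out (8 without wild-type replicate 1). Depth limits the lymphocyte genes, since *Trac* rests on 1 to 3 reads per PDX1 P33T library and *Cd79b* on 2 to 12 reads per wild-type library. A difference in them smaller than the spread between libraries was not detectable.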

Other observations

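Values of the class II genes of antigen presentation were also computed without the wild-type libraries high in macrophage markers. Over all 11 libraries, 2 of the 6 class II genes with a known wild-type row had an unadjusted p under 0.05 from limma (33.3%), beside 34.0% of all genes, and the median log2 fold change was -0.56. Without wild-type replicates 2 and 3, a choice made after the data were seen, 5 of 6 did, beside 16.7% of all genes in that fit. The median log2 fold change of the class II genes was then -0.44. None of the 4 macrophage markers had such a p there, and their median was -0.21. *H2-Aa*, *H2-Ab1*, *Cd74* and *H2-DMb1* were placed by reads, so the shares of all genes are not an even background. Over all 11 libraries, 87.1% of genes placed by reads had an unadjusted p under 0.05 from limma. In the same fit 2 of 11 other macrophage genes (median -0.18) and 2 of 3 dendritic cell genes (median -0.37) had an unadjusted p under 0.05. The endothelial genes had a median of -0.41 there, with 0 of 6 at an unadjusted p under 0.05. Wild-type replicate 2 was the lowest and replicate 3 the highest wild-type library for *H2-Aa*, *H2-Ab1* and *H2-Eb1*, so that leaving them out removed both extremes of these genes. None was called in either fit, and the difference between the lists was not tested. *H2-DMb1*, which loads peptides onto class II molecules, had 0.996 to 2.34 FPKM in wild-type and 0.411 to 0.92 FPKM in PDX1 P33T, with groups that did not overlap (two-sided exact permutation test, p = 0.00216) and an adjusted p of 0.499 from limma.

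*Fcgr1*, a high-affinity antibody receptor of macrophages, was at 0.994 to 2.2 FPKM in wild-type and at 0.833 to 0.934 FPKM in PDX1 P33T. Its groups did not overlap either (two-sided exact permutation test, p = 0.0108), with an adjusted p of 0.499 from limma. *Fcgr1* and *H2-DMb1* are among the genes placed by reads, which were selected for small p. For *Cd79a* and *Lyz2*, no wild-type row of the recovered gene length was within 16-fold of the PDX1 P33T level, and neither was compared.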
